A study of Mus musculus with 6 samples.

Results

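The genes that carry bile acids across the ileal enterocyte, together with the bile acid receptor FXR and its transcriptional targets, were followed in the ileal mucosa of Duoxa-deficient mice and their wild-type littermates. The set was defined by name as 10 genes: Slc10a2, Fabp6, Slc51a, Slc51b, Nr1h4, Nr0b2, Fgf15, Abcc2, Abcc3 and Gpbar1. Every probe set annotated with exactly 1 of these symbols was taken, which gave 1 probe set for each of 9 genes, 9 of the 45037 probe sets on the array. The symbol Gpbar1, the membrane receptor TGR5, matched 0 probe sets, and the gene was not analysed here. The samples were terminal ileum from female mice on the 129S6 background at 3 months of age. The wt and duoxa-/- animals were littermates housed together in 3 cages, and every cage contributed 1 wt and 1 duoxa-/- sample, for which the RNA of 2 to 3 animals was combined on 1 array. The duoxa-/- mice lack the DUOX maturation factors, without which the hydrogen peroxide-producing dual oxidases do not mature and reach the epithelial surface. Because a pool averages its animals, 3 pools per genotype show the spread between pools and not between mice.

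Bile acids made in the liver are taken up again in the terminal ileum, which makes this segment the main site of their recovery. SLC10A2 (ASBT) imports them with sodium at the brush border, FABP6 (the ileal bile acid-binding protein) holds them in the cytosol, and SLC51A and SLC51B (OSTα and OSTβ) together form the exporter of the basolateral membrane. In the cell bile acids activate FXR, the nuclear receptor encoded by Nr1h4, which acts with RXR on genes such as Fabp6, Slc51a, Slc51b, Nr0b2 (encoding the repressor SHP) and Fgf15, the hormone that travels to the liver and restrains bile acid synthesis. ABCC2 (MRP2) and ABCC3 (MRP3) are efflux pumps for conjugates at the apical and the basolateral membrane.

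The preferred response element of FXR with RXR is an inverted repeat of hexamers spaced by 1 base (IR-1), written as AGGTCA, any base (N) and TGACCT, which reads the same on both strands. RefSeq promoter sequences (assembly GRCm38.p6) were held for 8 of the 10 genes, all but Fgf15 and Abcc3, and the 250 bases before each start were searched. Fabp6, Slc51b and Slc51a are shown because they are the FXR targets whose promoters held a window with at most 3 mismatches over the 12 defined letters, given in capitals. This limit was chosen with the sequences in view. The Fabp6 promoter lies on the minus strand at chr11:43601563-43601812, that of Slc51b on the minus strand at chr9:65422774-65423023, and that of Slc51a on the minus strand at chr16:32487880-32488129.
Fabp6: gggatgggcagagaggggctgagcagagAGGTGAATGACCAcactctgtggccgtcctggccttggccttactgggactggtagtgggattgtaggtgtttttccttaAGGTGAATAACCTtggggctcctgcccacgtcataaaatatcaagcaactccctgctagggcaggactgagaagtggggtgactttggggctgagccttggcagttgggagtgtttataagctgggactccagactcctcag
Slc51b: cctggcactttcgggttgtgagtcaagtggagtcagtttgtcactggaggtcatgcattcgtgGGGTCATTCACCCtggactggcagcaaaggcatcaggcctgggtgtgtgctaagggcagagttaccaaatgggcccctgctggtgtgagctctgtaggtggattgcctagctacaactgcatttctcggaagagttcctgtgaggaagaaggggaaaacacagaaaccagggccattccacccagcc
Slc51a: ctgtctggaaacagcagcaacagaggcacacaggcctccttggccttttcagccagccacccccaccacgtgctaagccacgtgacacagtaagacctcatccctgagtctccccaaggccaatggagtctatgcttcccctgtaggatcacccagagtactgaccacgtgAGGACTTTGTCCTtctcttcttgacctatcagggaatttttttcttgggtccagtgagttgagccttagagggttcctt

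Fabp6 held 2 such windows, AGGTGAATGACCA from 222 to 210 bases before the start and AGGTGAATAACCT from 142 to 130 bases before it, each with 2 mismatches. Counted from 1 at the 5′ end of the consensus, the first differed by C5G and T13A and the second by C5G and G9A. The windows of Slc51b (A1G, G9C and T13C) and Slc51a (T4A, A6T and A10T) had 3 mismatches each. Of 32851 promoters of this length, 0.959% held a window with at most 2 mismatches and 9.63% one with at most 3, so a match of the Slc51a and Slc51b kind is common. Nr0b2 had no window within 3 mismatches in these 250 bases, which says only that these letters are not in this stretch. For Slc10a2, which is not a classical FXR target in this sense, the binding motif of the hepatocyte nuclear factor HNF1 was searched (GTTAAT, any base and ATTAAC, which also reads the same on both strands). Its promoter, on the minus strand at chr8:5105288-5105537, is shown with the 1 window of 1 mismatch (G1A, from 224 to 212 bases before the start) in capitals. Windows with at most 1 mismatch stood in 0.189% of promoters, and windows with at most 2 in 1.24%. The HNF1 search covered all 8 promoters, with a limit of 2 mismatches. Nr1h4 (40 to 28 bases before the start) and Abcc2 (75 to 63 bases before it) also held windows, each with 2 mismatches.
Slc10a2: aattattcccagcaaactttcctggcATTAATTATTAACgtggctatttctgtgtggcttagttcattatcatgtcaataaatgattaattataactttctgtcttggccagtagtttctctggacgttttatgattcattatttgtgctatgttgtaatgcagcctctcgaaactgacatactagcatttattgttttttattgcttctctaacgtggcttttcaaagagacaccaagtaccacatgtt

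The values are log2 probe set signals, and each genotype difference is duoxa-/- minus wt on that scale, with standard errors (SE) and 95% confidence intervals from a limma fit of all probe sets. The 6 arrays correlated across probe sets with r between 0.994 and 0.998. Duoxa2, the maturation factor of DUOX2, read 7.24 to 8.81 in wt pools and 5.55 to 5.92 in duoxa-/- pools, without overlap. Duoxa1, its counterpart for DUOX1, read 6.41, 6.26 and 6.25 in wt pools and 6.22, 5.92 and 6.33 in duoxa-/- pools, which overlapped (difference -0.15, SE 0.12). The Duoxa2 difference did not pass adjustment over all probe sets (adjusted p = 0.794), and the sources used here do not say whether either probe set lies in the deleted stretch. Over the whole array 0 probe sets were called between genotypes at an adjusted p under 0.05 (0% in either direction), while 2692 (5.98%) had an unadjusted p under 0.05. The tissue label was checked against markers: all 10 distal small intestine and all 11 measured enterocyte markers lay above the median of all probe sets (6.58). So did 5 of 9 measured proximal small intestine markers and 4 of 8 large intestine markers, so these lists did not separate the gut segments by level. The proximal markers Gata4, Lct, Onecut2 and Cyp2b10 lay below the median, and Fabp1, Cybrd1, Slc40a1, Adh1 and Scd2 lay above it. In bulk mucosa, fewer cells of a type and less RNA per cell cannot be told apart.

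None of the 9 bile acid genes was called between genotypes, and none had an unadjusted p under 0.05. Their adjusted p values lay between 0.816 and 0.999. The duoxa-/- mean was below the wt mean for 6 genes and above it for 3, with a median log2 difference of -0.03, against 0.0013 over all probe sets. Of all genes, read with 1 probe set each, 53.9% had the lower mean in duoxa-/- pools. In every one of the 9 the wt and duoxa-/- pools overlapped, where over the array 6.25% of probe sets had all duoxa-/- pools above all wt pools and 5.36% all below. The number of arrays limits what could be seen: the 95% interval was narrowest for Fabp6 (0.873-fold to 1.14-fold) and widest for Abcc2 (0.505-fold to 1.33-fold). With cage as a block none of the 9 had an unadjusted p under 0.05 either, against 6.6% of all probe sets.

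**Figure D1:**
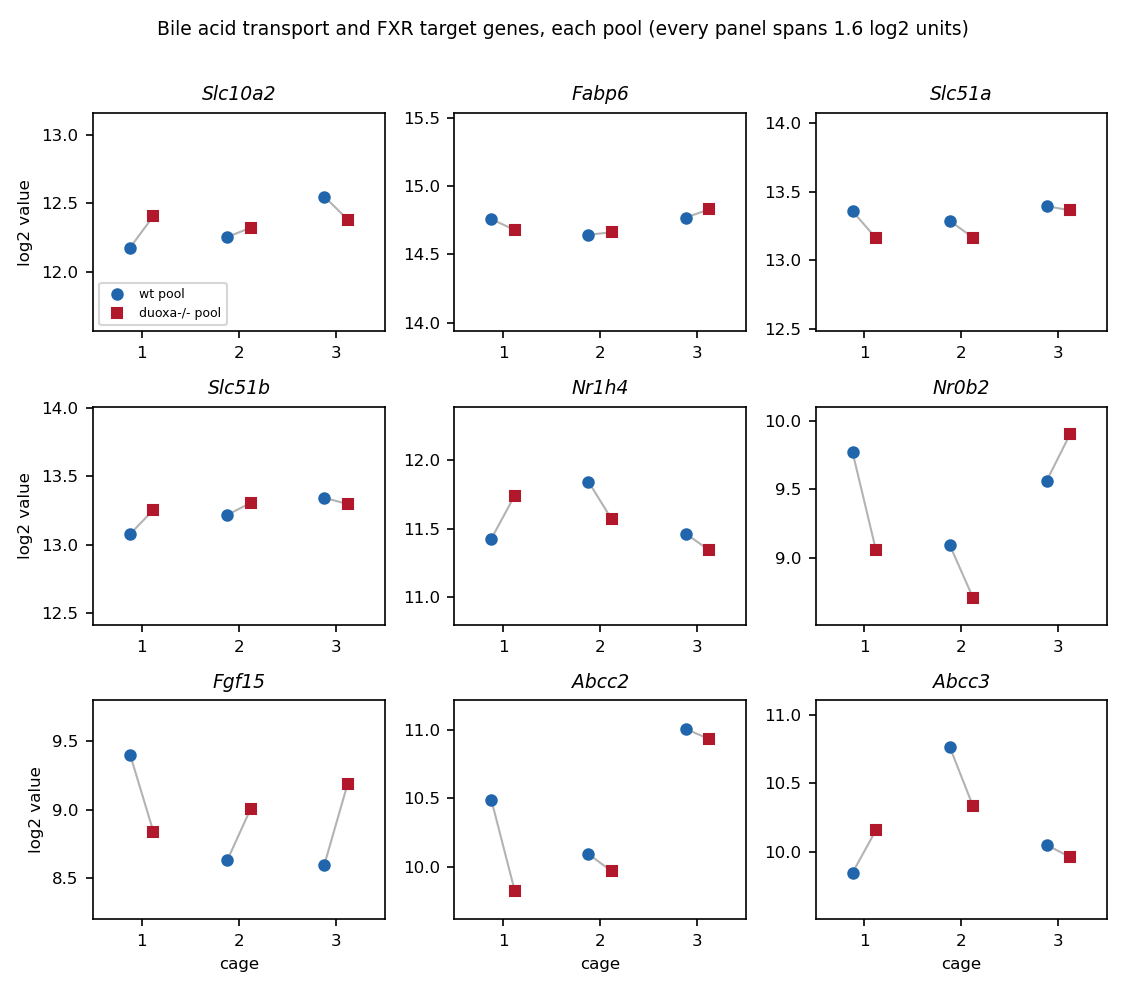
Log2 value of each of the 9 genes (y axis) in the wt pool (circles) and duoxa-/- pool (squares) of each cage (x axis), with a grey line joining the pools of a cage and every panel spanning 1.6 log2 units. Slc10a2, Fabp6, Slc51a and Slc51b stayed within 0.37 units over the 6 pools, while Nr0b2 and Abcc2 spanned 1.20 and 1.18.

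The uptake transporter Slc10a2 read 12.18, 12.25 and 12.55 in the wt pools of cages 1, 2 and 3 and 12.41, 12.32 and 12.38 in the duoxa-/- pools. The duoxa-/- pools lay close together and inside the range of the wt pools, whose highest value was that of cage 3. The group means were 12.33 ± 0.20 and 12.37 ± 0.04 (SD, n = 3 each). The difference of 0.04 (SE 0.11) had a 95% interval from 0.87-fold to 1.22-fold.

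Fabp6, the cytosolic carrier and a direct FXR target, had the narrowest spread of the 9 genes. It read 14.76, 14.64 and 14.77 in wt pools and 14.68, 14.66 and 14.83 in duoxa-/- pools, so that all 6 values lay within 0.18 log2 units. The group means were 14.72 in both genotypes, with SDs of 0.07 in wt and 0.09 in duoxa-/- (n = 3 each). The difference was -0.00087 (SE 0.09), with a 95% interval from 0.873-fold to 1.14-fold. Signals this near the top of the array, where the highest value of any probe set was 15.59, can be compressed, and this was not tested.

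The basolateral exporter needs both subunits, and neither was called between genotypes. Slc51a read 13.36, 13.29 and 13.40 in wt pools and 13.16, 13.17 and 13.36 in duoxa-/- pools. In each of the 3 cages the duoxa-/- pool was the lower, with differences of -0.20, -0.12 and -0.03. Of the 9 genes 2 had this pattern, against 14.3% of all probe sets, and 0 the opposite one, against 15.3%. The group means of Slc51a were 13.35 ± 0.05 in wt and 13.23 ± 0.12 in duoxa-/- pools (SD, n = 3 each). The mean difference of Slc51a, -0.12 (SE 0.09), had an adjusted p of 0.816 in limma. Slc51b read 13.08, 13.22 and 13.34 in wt pools and 13.25, 13.30 and 13.30 in duoxa-/- pools. The Slc51b difference of 0.07 (SE 0.09) pointed the other way in 2 of 3 cages, so the mean differences of the partner subunits had opposite signs. The 95% intervals ran from 0.802-fold to 1.06-fold for Slc51a and from 0.913-fold to 1.21-fold for Slc51b. The Slc51a probe set carries the suffix of sets that can match more than 1 transcript.

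Nr1h4, the FXR gene itself, read 11.43, 11.84 and 11.46 in wt pools and 11.74, 11.57 and 11.34 in duoxa-/- pools. The duoxa-/- pool was the higher in cage 1 by 0.32 and the lower in cage 2 by -0.28 and in cage 3 by -0.12. The mean difference of -0.03 (SE 0.14) was smaller than the SD of either group (0.23 in wt and 0.20 in duoxa-/-, n = 3 each), with a 95% interval from 0.787-fold to 1.22-fold. The receptor gene had a wider interval than its targets Fabp6, Slc51a and Slc51b and a narrower one than its targets Nr0b2 and Fgf15.

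Nr0b2 and Fgf15, the FXR targets whose products dampen bile acid synthesis, had wide spreads and differed in sign between cages. Nr0b2 read 9.77, 9.09 and 9.56 in wt pools and 9.06, 8.71 and 9.90 in duoxa-/- pools. The cage differences were -0.71, -0.39 and 0.34, and the highest and the lowest value of all 6 pools were both from duoxa-/- mice. The mean difference was -0.25 (SE 0.29), from 9.48 ± 0.35 in wt to 9.22 ± 0.62 in duoxa-/- pools (SD, n = 3 each). Leaving out the duoxa-/- pool of cage 2 gave 0.0044, and leaving out that of cage 3 gave -0.59 (adjusted p = 0.806 in limma).

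Fgf15 read 9.40, 8.63 and 8.60 in wt pools and 8.84, 9.004 and 9.19 in duoxa-/- pools. The wt pool of cage 1 was the highest of all, and the other wt pools were the lowest, so the duoxa-/- pools lay between them. Cages 1, 2 and 3 differed by -0.56, 0.38 and 0.59, and the mean of 0.13 (SE 0.21) had a 95% interval from 0.794-fold to 1.52-fold. The sign rests on single pools: without the wt pool of cage 1 the Fgf15 difference was 0.40 (adjusted p = 0.965 in limma), without all of cage 1 it was 0.48, without the wt pool of cage 3 -0.0051, and without all of cage 3 -0.095. The wt pool of cage 1 also had the highest smooth muscle marker mean, 0.43 above the mean of the arrays over 10 of 10 markers, all above the array median. Its T cell markers lay at -0.25, and the part of this make-up in the Fgf15 value was not tested.

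Abcc2, the apical conjugate pump, read 10.49, 10.09 and 11.01 in wt pools and 9.83, 9.97 and 10.94 in duoxa-/- pools. The duoxa-/- pool was the lower in each cage, with differences of -0.66, -0.13 and -0.07, but both pools of cage 3 lay above all the others. The difference of -0.29 (SE 0.31) had an adjusted p of 0.862 in limma. With cage as a block the SE was 0.13, 2.35 times smaller, and the 95% interval ran from 0.662-fold to 1.01-fold, still without a call (adjusted p = 0.740). The block made the SE over 1.5 times smaller for 3 of the 9 genes, Abcc2, Nr0b2 and Abcc3, against 2.96% of all probe sets. Leaving out the cage 1 duoxa-/- pool brought the Abcc2 difference to -0.08, and leaving out the cage 3 wt pool brought it to -0.05. Its probe set can also match more than 1 transcript.

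Abcc3, the basolateral pump, read 9.85, 10.77 and 10.05 in wt pools and 10.16, 10.33 and 9.96 in duoxa-/- pools. Both pools of cage 2 lay above the other 4, and the cage differences were 0.31, -0.43 and -0.09. The mean difference of -0.07 (SE 0.22) was far inside the SD of the wt pools, 0.48 (n = 3). It turned to 0.20 without the wt pool of cage 2, to 0.11 without all of cage 2 and to 0.024 without the duoxa-/- pool of cage 3.

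**Figure D2:**
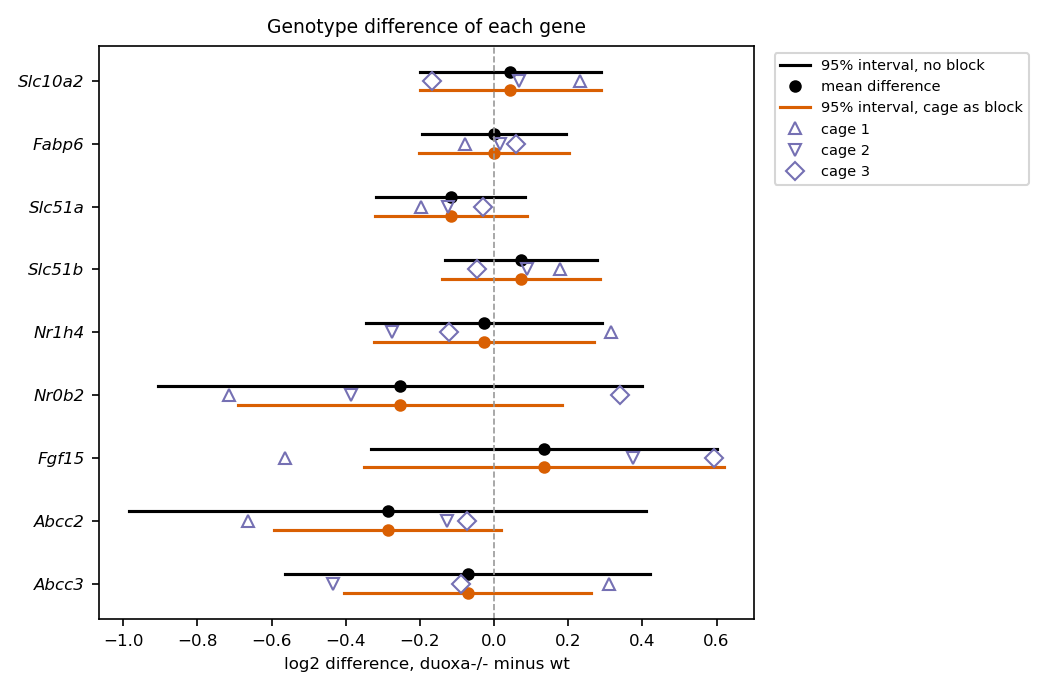
Log2 difference between duoxa-/- and wt pools (x axis) of each gene (y axis), with filled points for the mean, black bars for the 95% interval without and orange bars with cage as a block, and open symbols for the 3 cages. Every interval includes 0, and the block narrows those of Abcc2, Nr0b2 and Abcc3 the most.

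Between litters the widest spans of cage means were those of Abcc2, Nr0b2 and Abcc3, and none passed adjustment. In limma's F-test between cages, with genotype in the fit, 0 of the 9 genes and 1 of all probe sets (0.00222%) were called. At an unadjusted p under 0.05 stood 3 of the 9 genes, Abcc2, Nr0b2 and Abcc3, against 5.55% of all probe sets. Abcc2 cage means were 10.16, 10.03 and 10.97 for cages 1, 2 and 3, a 1.92-fold span (adjusted p = 0.516). Nr0b2 cage means were 9.41, 8.90 and 9.73, a 1.78-fold span (adjusted p = 0.877). Abcc3 cage means ran in another order, 10.001, 10.55 and 10.004, with the same adjusted p to 3 digits. Slc10a2, Fabp6, Slc51a and Slc51b spanned 1.11-fold to 1.13-fold between cage means. Both pools of cage 3 lay above all others for Fabp6, Slc51a and Abcc2, which held for 8.7% of all probe sets. For Fabp6 (14.768 in wt cage 3 against 14.757 in wt cage 1) the margin was very small. The same held for Slc51a (13.364 in duoxa-/- cage 3 against 13.358 in wt cage 1). Both pools of cage 2 were the highest for Abcc3 (7.06% of all probe sets) and the lowest for Fabp6 (7.71%). A genotype effect that differs between cages could not be tested with 1 pool per cage and genotype.

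Across the 6 pools some of these genes varied in parallel, given here as a description, because the pools of a cage share a litter. Of the 36 pairs of genes, 19 had a positive Pearson r and 7 an r of at least 0.8. The share of such pairs among all genes was not computed, so these counts have no array-wide comparison. Fabp6 followed Nr0b2 (r = 0.92, Spearman's rho = 0.77) and Abcc2 (r = 0.89, rho = 0.71) and ran against Nr1h4 (r = -0.89, rho = -0.89). Slc51a followed Abcc2 (r = 0.91, rho = 1). Slc10a2 followed Slc51b (r = 0.84, rho = 0.77), and Nr1h4 followed Abcc3 (r = 0.84, rho = 0.89). Fgf15 had no r of at least 0.8 with any of the others; its highest was with Fabp6 (r = 0.45, rho = 0.26). The spread of Fabp6 behind these values was only 0.18 log2 units.

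The mucosal make-up of the pools also varied. The 11 measured enterocyte markers (all above the array median) lay on average at 0.19, -0.02 and 0.17 around the array mean in the wt pools of cages 1, 2 and 3, and at -0.18, -0.38 and 0.22 in the duoxa-/- pools. Nr0b2 lay at 0.42, -0.26 and 0.21 in these wt pools and at -0.29, -0.64 and 0.55 in these duoxa-/- pools, so both were lowest in the duoxa-/- pool of cage 2 and highest in that of cage 3. The 10 enteroendocrine L cell markers ranged from -0.23 to 0.15 in wt and from -0.18 to 0.36 in duoxa-/- pools, and the 10 distal small intestine markers from -0.10 to 0.11 and from -0.14 to 0.14. The distal markers, like the enterocyte markers, were lowest in the duoxa-/- pool of cage 2 and highest in that of cage 3. The part of enterocyte content or of position along the ileum in these gene values was not tested. Of 10 hepatocyte markers, 7 lay below the array median, among them Alb and Cyp7a1. The 3 above it were Ttr, Baat and Apoh. Apoh read 9.02 in the wt pool of cage 1 and 8.28 in the duoxa-/- pool of cage 2, against 7.09 to 7.51 in the other pools.

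**Figure D3:**
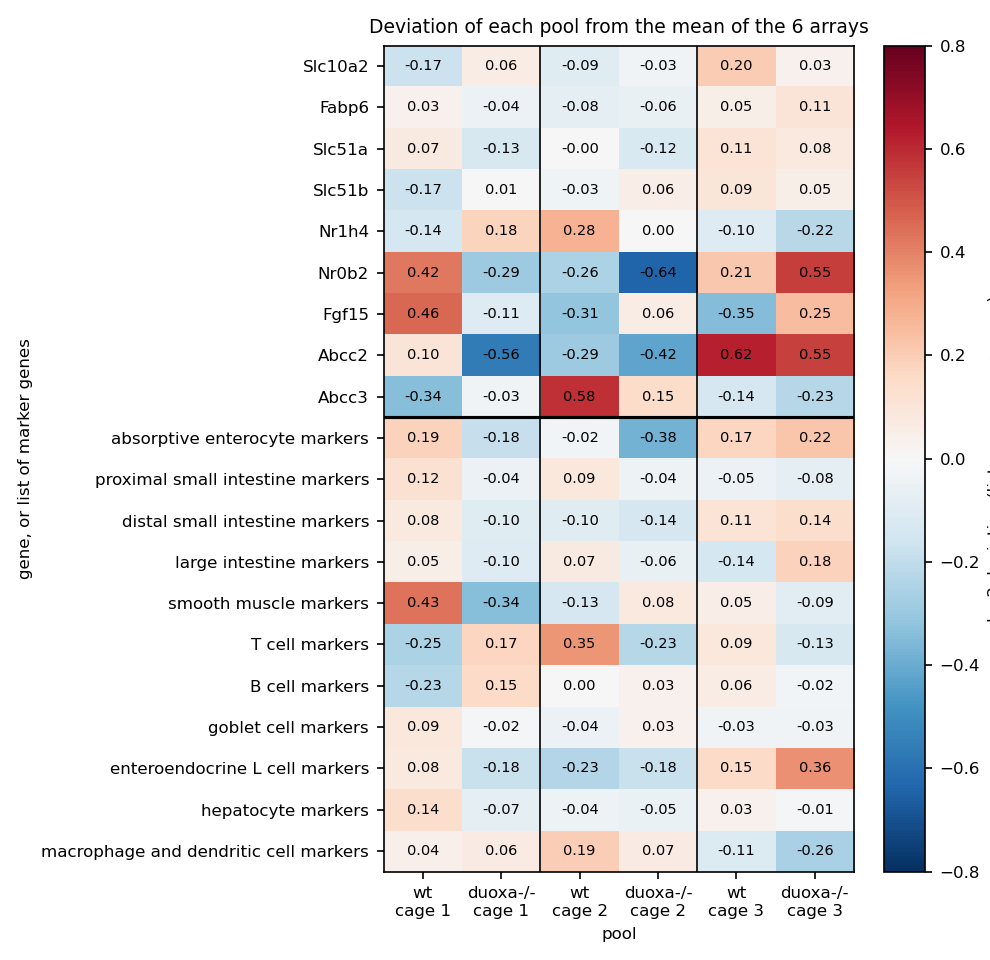
Deviation of each pool (columns, grouped by cage) from the mean of the 6 arrays on the log2 scale, for the 9 genes (top) and for the mean of each list of marker genes (bottom), with the value in each cell. Nr0b2, the enterocyte markers and the distal small intestine markers are all lowest in the duoxa-/- pool of cage 2, at -0.64, -0.38 and -0.14.

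Genes whose pattern over the 6 arrays was most like 3 of the members were ranked by Pearson r among 1970 genes above the array median with an SD of at least 0.2. Ranking so many genes over 6 arrays returns high values of r, which are listed as a description. Fabp6 (SD 0.07) and Slc10a2 (SD 0.13) themselves varied less than this limit, so small patterns were matched to genes of larger spread. Fabp6 was most like Nts, the gene of the gut peptide neurotensin (r = 0.99, rho = 0.94), followed by Prxl2a, Acaa1b, Hsd17b13 and Arl14 (r of 0.98 to 0.99). Nts read 12.90, 12.42 and 12.87 in wt pools and 12.61, 12.48 and 13.12 in duoxa-/- pools, the same order of pools as Fabp6 except that the wt pools of cages 1 and 3 changed places. Slc10a2 was most like Bcl2 (r = 0.97, rho = 0.94), an inhibitor of apoptosis, then Rnls, Ankrd12, Rae1 and Neurl3 (r of 0.89 to 0.96). Fgf15 was most like Tpbg, the gene of the 5T4 glycoprotein (r = 0.96, rho = 0.94), then Ppp1r14c, Six5, Plagl1 and Pskh1 (r of 0.94 to 0.95).

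The wider bile acid axis was read from 6 lists of genes with 63 measured members outside the 9, each represented by its probe set of highest mean. None was called in either direction (0% of all genes, limma), and 8 of 63 (12.7%) had an unadjusted p under 0.05, against 5.41% of the 18193 genes. With cage as a block 10 of 63 did, against 1100 of the 18193 genes, and 0 were called. The duoxa-/- mean was the lower for 50 of 63 genes (79.4%), against 53.9% of all genes, with a median log2 difference of -0.12 against -0.01. In all 3 cages 21 of the 63 were lower (33.3%, against 16.6% of all genes) and 2 were higher (3.17%, against 13.5%). Cages 1, 2 and 3 had medians over these 63 of -0.16, -0.18 and -0.03. The count of lower genes stayed between 44 and 54 of 63 when single pools or cages were left out. Several marker lists were also lower in duoxa-/- pools. Of the enterocyte markers 10 of 11 were lower (mean difference -0.23), of the smooth muscle markers 10 of 10 (-0.24), of the T cell markers 7 of 8 (-0.12) and of the proximal small intestine markers 7 of 9 (-0.11). In all 3 cages 3 of 11 enterocyte, 3 of 9 proximal, 1 of 8 T cell and 0 of 10 smooth muscle markers were lower. Other lists had a smaller lower share: 7 of 10 distal small intestine, 7 of 10 hepatocyte and 5 of 8 goblet cell markers. So did 5 of 9 macrophage and dendritic cell, 5 of 10 L cell and 4 of 8 large intestine markers. Of the B cell markers 2 of 7 were lower (mean difference 0.11). Slc10a1, Cyp7a1, Cyp8b1 and Baat of the hepatocyte list and Gata4 of the proximal list were also among the 63 genes. By group means a high lower share was thus also seen in some marker lists and not in others. The part of tissue make-up in it was not tested.

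Among other carriers and export pumps, 10 of 13 were lower and 6 were so in all 3 cages. Abcg8, which with ABCG5 exports sterols at the apical membrane, read 9.01, 8.96 and 8.83 in wt and 8.65, 8.63 and 8.81 in duoxa-/- pools, a difference of -0.24 (SE 0.09). The groups of Abcg8 did not overlap, as for 5.36% of probe sets in this direction. Here and below, the listed genes given values were those of smallest genotype p in their list, except Cyp7a1, Cyp3a11 and Nos2. That choice by itself favours groups without overlap and differences large against their SE. Slc10a1, the hepatic bile acid importer, lay below the array median at 5.02 to 5.47 and differed by -0.18 (SE 0.11).

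Of 15 measured receptors and transcription factors, 13 were lower, 3 of them in all 3 cages. Nr1h3, encoding the oxysterol receptor LXRα, read 8.17, 8.08 and 8.08 in wt pools against 7.90, 7.76 and 7.95 in duoxa-/- pools, a difference of -0.24 (SE 0.08) without overlap. Nr1h3 was named for the smallest genotype p of this list, which favours such a separation. Ppara, encoding the fatty acid receptor PPARα, differed by -0.40 (SE 0.21), with -0.45, -0.56 and -0.19 in cages 1, 2 and 3. With cage as a block the SE of Ppara was 0.10, still without a call (adjusted p = 0.740, limma). Without the block Nr1h3 and Ppara both had an adjusted p of 0.794 in limma, a value tied over many probe sets that does not rank them.

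On the receiving side of FGF15, which acts in the liver through FGFR4 and its co-receptor β-Klotho, 4 of 5 genes were lower. Fgfr4 read 7.44, 7.10 and 7.15 in wt and 7.02, 6.93 and 7.01 in duoxa-/- pools, a difference of -0.24 (SE 0.10) with no overlap. Fgfr4, like Cyp27a1 below, was named for the smallest genotype p of its list, which favours groups without overlap. Klb lay below the array median and differed by -0.19 (SE 0.09). Of the genes of bile acid synthesis and conjugation, 7 of 11 were lower and 5 lay below the array median, the rate-limiting hepatic enzyme gene Cyp7a1 among them at 4.66 to 4.89. Cyp27a1, the mitochondrial sterol 27-hydroxylase that is expressed beyond the liver, read 9.51, 9.81 and 9.44 in wt and 9.36, 9.06 and 8.89 in duoxa-/- pools. Its difference was -0.48 (SE 0.14), or 0.717-fold, and the groups did not overlap, but it did not pass over all probe sets (adjusted p = 0.794, limma). Hsd3b7, which encodes an enzyme acting on the steroid nucleus, differed by -0.21 (SE 0.11).

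All 5 measured genes of bile acid detoxification, of 9 listed, were lower, 3 of them in all 3 cages. Sult2a1, Ugt1a1, Ugt1a6a and Gsta1 of the list were not measured. Cyp3a11, Cyp3a13 and Cyp3a25 belong to the same family, so the 5 are not separate readings. Cyp3a11 differed by -2.13, -0.42 and 0.57 in cages 1, 2 and 3. Sult2b1, a sterol sulfotransferase, read 11.59, 11.69 and 11.79 in wt and 11.38, 11.47 and 11.46 in duoxa-/- pools, a difference of -0.25 (SE 0.08), and Cyp3a13 differed by -0.16 (SE 0.12). Among other genes reported to respond to FXR, 11 of 14 were lower. Pdk4, the pyruvate dehydrogenase kinase of fasting, read 7.04, 7.24 and 6.88 in wt and 6.497, 6.56 and 6.84 in duoxa-/- pools, a difference of -0.42 (SE 0.12), nearly all of it from cages 1 and 2. Pltp, the phospholipid transfer protein of plasma lipoproteins, differed by -0.29 (SE 0.10), with -0.27, -0.39 and -0.21 in the 3 cages. Sult2b1, Cyp3a13, Pdk4 and Pltp were likewise named for the smallest genotype p values of their lists. Nos2, the inducible nitric oxide synthase gene of the same list, was higher in the duoxa-/- pool of each cage, and it is named after its values were seen. It read 6.97, 7.29 and 6.74 in wt and 7.503, 7.47 and 7.22 in duoxa-/- pools, a difference of 0.40 (SE 0.14, adjusted p = 0.794 in limma). It was among the 8 genes of the lists with an unadjusted p under 0.05 without the block, and the other 7 were lower. Of the 9 bile acid genes, 6 were lower, against 53.9% of all genes. They were Abcc2 (-0.29), Nr0b2 (-0.25), Slc51a (-0.12), Abcc3 (-0.07), Nr1h4 (-0.03) and Fabp6 (-0.00087). The difference between the lists was not tested.

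**Figure D4:**
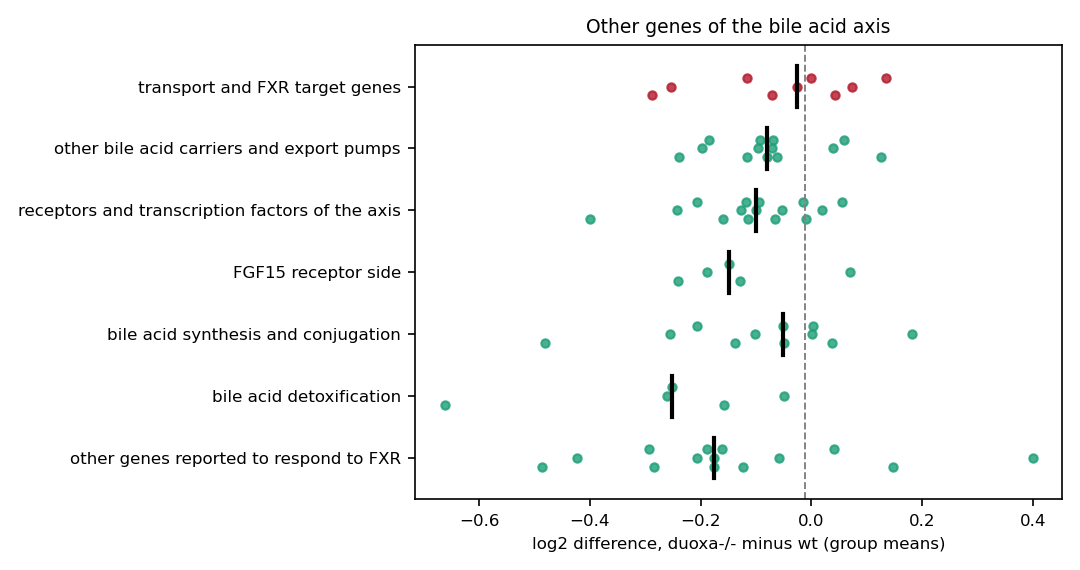
Log2 difference between duoxa-/- and wt group means (x axis) of each gene (points) of the 9 bile acid genes and of the 6 further lists (y axis), with a black bar at each list's median and a dashed line at the median of all genes. The medians run from -0.25 for detoxification (5 of 9 listed genes measured) to -0.03 for the 9 bile acid genes, all below the dashed line at -0.01.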

How the data were processed

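Total RNA of ileal mucosa was pooled per cage and genotype, labelled with biotin and hybridised to 6 single-colour Affymetrix arrays. The deposited values are log2 probe set summaries that the authors made by RMA (affy), according to the labels and per the submitters' processing notes; its settings are not stated in the sources used here. RMA compresses differences of dim probe sets. From the 45101 deposited rows, 64 control probe sets were left out, and 34945 of the other 45037 had 1 gene symbol. Gene identifiers matched 34741 of them to RefSeq (GRCm38.p6), and 0 symbols changed. Lists were read with the probe set of highest mean for every one of 18193 genes.

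Genotypes were compared with limma 3.58.1 in R 4.3.3 (lmFit, eBayes, two-sided) on all probe sets without a cage term, and cages by a moderated F-test in limma that kept a genotype term. Benjamini-Hochberg adjusted p values under 0.05 were calls, over all 45037 probe sets. The fits were tested on simulated data. Tables and figures were made with Python 3.11.15, pandas 2.3.3 and matplotlib 3.10.9. The members and lists were chosen with earlier results of these data known. Named genes were all probe sets of the members, the 2 genes of smallest genotype p of each list, and the 5 most alike genes of 3 members. Outside this rule, Duoxa1 and Duoxa2 were read as a check of the labels, and the single marker genes, Cyp7a1, Nos2, Cyp3a11 and Cyp3a25 were picked with their values in view.

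The design text equates cages with litters, so same-cage pools are pairs. As a check, their deviations from the genotype means had an r across genes of -0.18, 0.16 and 0.34 in cages 1, 2 and 3, against -0.44 to 0.40 for pools of different cages. The values thus did not show the pairing, which rests on the design text. The p values measure the spread between pools. Alternatives were another normalization, centring, a filter on dim probe sets, 1 probe set per gene, no cross-hybridising probe sets, array weights, an intensity trend, the cage block, and each pool or cage left out.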

Additional observations from a re-analysis of the deposited data

How the results depend on the processing

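No member was called between genotypes or between cages under any alternative run, and the count of all probe sets called between genotypes was 0 in each, except that it ranged from 0 to 1 when pools or cages were left out. With cage as a replicate block it was 0 as well (2971 probe sets with an unadjusted p under 0.05), and the block changed no call of a member. The count called between cages, 1 in the reported fit, was 0 without the genotype term and 0 without cross-hybridising probe sets, 2 with 1 probe set per gene, 3 after centring each array and 5 with an intensity trend, and ranged from 1 to 23 when pools or cages were left out. The cause was not tested. The median member difference of -0.03 ranged from -0.10 to 0.024 when pools or cages were left out. Nr1h4 turned to 0.012 with array weights. Leaving out pools or cages gave ranges that crossed 0 for Slc10a2 (-0.050 to 0.15), Fabp6 (-0.054 to 0.038), Nr1h4 (-0.20 to 0.11), Nr0b2 (-0.59 to 0.0044), Fgf15 (-0.095 to 0.48) and Abcc3 (-0.26 to 0.20). Slc51a (-0.18 to -0.08), Slc51b (0.0052 to 0.14) and Abcc2 (-0.63 to -0.05) kept their sign there. The count of pathway genes lower in duoxa-/- pools was recomputed under the same alternatives, a choice made after seeing the data. It was 50 to 52 of 63 under those that kept all pools and all 63 genes. It was 40 of 50 with only probe sets at or above the median level, and 37 of 44 without cross-hybridising probe sets. When pools or cages were left out it ranged from 44 to 54 of 63. Raw intensities and detection calls were not used here, so signal over background was not measured.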

Other observations

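Some genes with larger spreads had, like Fabp6 and Nr0b2, their highest value in the duoxa-/- pool of cage 3; Cyp3a11 was chosen after its values were seen, and Acaa1b and Hsd17b13 come from the ranking by likeness to Fabp6. Cyp3a11, a cytochrome P450 that hydroxylates bile acids and drugs, read 11.70, 9.25 and 11.33 in the wt pools of cages 1, 2 and 3 and 9.57, 8.83 and 11.89 in the duoxa-/- pools. It was thus high in both pools of cage 3 and in the wt pool of cage 1, and its genotype difference of -0.66 had an SE of 0.82. Acaa1b, a peroxisomal thiolase of fatty acid oxidation, read 8.31, 6.34 and 8.19 in wt pools and 6.57, 5.95 and 9.58 in duoxa-/- pools. Hsd17b13, a lipid droplet protein, read 11.26, 10.55 and 11.63 in wt pools and 10.86, 10.57 and 11.91 in duoxa-/- pools. Neither the genotype nor the cage test called any of the 3 (adjusted p from 0.434 to 0.877 for cage, limma). The related Cyp3a25, also chosen after its values were seen, ranged only from 11.60 to 12.47, and the probe sets of this family may read more than 1 of its members.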
